A study of Homo sapiens with 3 samples.

Results

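The genes described here run the step from G1 into S phase and copy the DNA: 39 genes for G1 cyclins and their kinases, RB, E2F factors and MYC, the proteins that license replication origins, the fork machinery and the enzymes that make deoxynucleotides. The members were given as a list of symbols, drawn up with earlier results of these arrays known. All 39 had at least 1 probe set annotated to that gene alone, out of 19775 genes with such a probe set, and together they had 79 of the 54613 non-control probe sets. Expression was measured with Affymetrix arrays in HT29 cells, an established human colorectal adenocarcinoma line. The miR-146a cells were transduced by lentivirus with a construct that expresses miR-146a (2 arrays, replicates 1 and 2), and the control cells with the empty lentiviral vector (1 array). All cells were grown in the same serum-containing medium, and the labels do not say whether the transduced cells were pools or clones, or whether the replicates were separate cultures.

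miR-146a is a microRNA best known for limiting Toll-like and interleukin-1 receptor signalling. Its mature 5p strand is shown because it is what the construct is labelled to express, with the seed (bases 2 to 8) in capitals. The sequence is from RefSeq (GRCh38.p14, chr5:160485372-160485393, plus strand), and sites for it in the members were not searched here.
hsa-miR-146a-5p: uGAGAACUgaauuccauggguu

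Passage from G1 into S phase is controlled by D-type cyclins with CDK4 or CDK6 and by E-type cyclins with CDK2, which phosphorylate the RB protein and so release E2F transcription factors. E2F factors are known to drive the genes for cyclin E, for nucleotide synthesis and for the replication proteins themselves. Origins are licensed when ORC, CDC6 and CDT1 load the MCM helicase on DNA, and they fire when CDC45 and GINS join that helicase and the polymerases follow.

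The colon epithelial identity of the cells was checked first. Of 12 colon epithelial markers, 11 lay above the filter on low signal, which was a log2 signal of 5.13, the median over non-control probe sets. The exception was GPA33. Among 15 markers of haematopoietic cells, fibroblasts and endothelium, 14 had a probe set of their own and 5 lay above the filter (CD14, ITGAM, COL1A1, DCN and PECAM1), with no array over 7.33, whereas the epithelial markers reached 14.22. Median log2 signals were 5.14 and 5.12 in miR-146a replicates 1 and 2 and 5.13 in the vector array. Over the 12444 genes above the filter, the SD of the difference was 0.20 for replicate 1 minus vector and 0.19 for replicate 2 minus vector, and 0.11 for replicate 1 minus replicate 2. With 3 arrays in all, and no replicate of the vector, precision is limited throughout.

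Most G1/S and replication genes read slightly higher in the miR-146a arrays. By the brightest probe set of each gene, 32 of the 38 members above the filter exceeded the vector in each miR-146a array, a share of 84.2%, where 40.2% of all 12444 genes were. Only RFC4 was lower in both, where 28.8% of all genes were, and 5 members (CCND3, CDK6, CDK2, RB1 and ORC1) were equal to the vector in at least 1 array or lay on both sides of it. In 22 members the smaller of the array differences exceeded the gap between the miR-146a arrays, where this held for 28.6% of all genes upward and for 18.8% downward (among members, only RFC4). The median difference over the members, miR-146a mean minus vector, was 0.16 on the log2 scale (0.16 in replicate 1 and 0.18 in replicate 2), which is 1.11-fold, against a median of 0.01 over all genes. The differences were small: they ran from -0.09 (RB1) to 0.46 (MYC).

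At least 25% higher than the vector on the linear scale in both arrays were 6 members, MYC, E2F1, E2F2, E2F3, MCM10 and CCND1, where 3.79% of all genes passed the same size. No member was lower by the same log2 size in both, where 1.95% of all genes were. CCNE1 lay just outside, with a log2 difference of 0.32191 in replicate 1 against the limit of 0.32193. No member was 1.5-fold higher in both arrays, where 0.546% of all genes were.

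In limma (Benjamini-Hochberg adjustment over all 12444 genes) no member passed an adjusted p of 0.05, and neither did any other gene, so that 0% of genes were called. Members had adjusted p between 0.118 and 1, the smallest for MCM10 and UHRF1. At an unadjusted p under 0.05, 14 members were higher (36.8%, against 14.6% of all genes) and 0 lower (against 9% of all genes). The fit has 1 residual degree of freedom, and 1610 genes held exactly equal values in the miR-146a arrays, CDK6 and RFC4 among them. With a variance prior estimated only on genes whose miR-146a values differ, 7 members passed limma as higher (18.4%, against 4.76% of all genes) and 0 as lower (against 2.36%). They were the 6 above and CCNE1. That setting was known from earlier work on these arrays. With either prior, limma assumes that the vector array varies like the miR-146a replicates.

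The arrays also differed in probe sets that read RNA ends and ribosomal RNA. Controls that read the 5′ ends of ACTB and GAPDH were lower by -0.32 to -0.18 in the miR-146a arrays, while the 3′ ones differed by -0.03 to 0.05. The control probe sets of 18S rRNA were higher by 0.60 to 0.94. Their part in the results below was not tested. In RNA of whole cultures, a larger share of cells in S phase and more RNA per cell cannot be told apart.

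**Figure D1:**
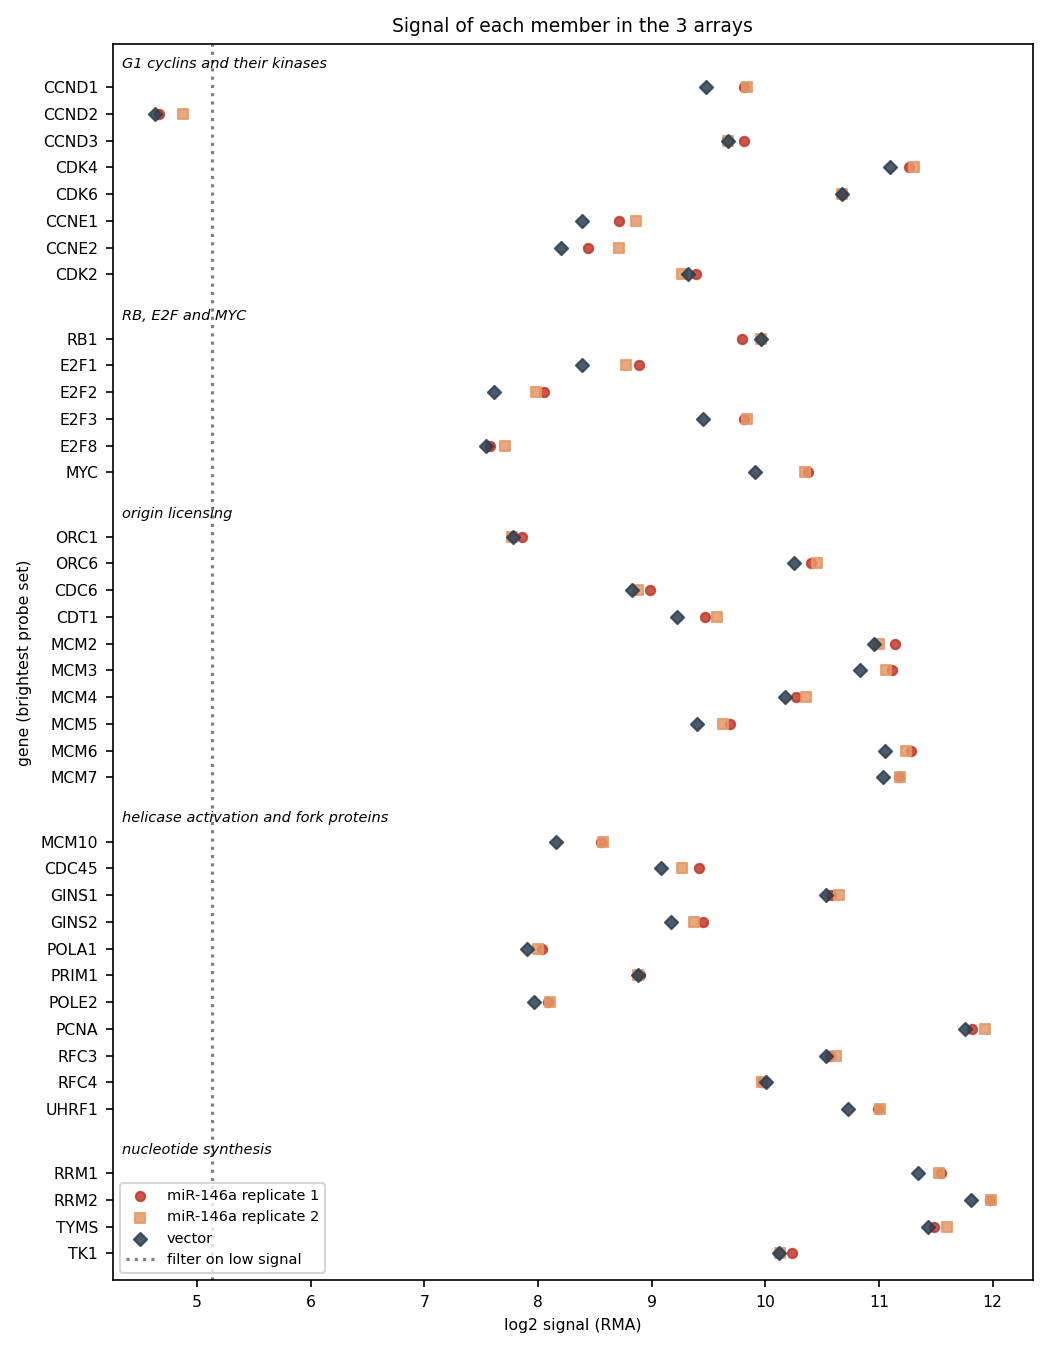
Log2 RMA signal (x axis) of the brightest probe set of each of the 39 members (rows, by role) in miR-146a replicate 1 (circles), miR-146a replicate 2 (squares) and the vector array (diamonds), with the filter on low signal dotted. CCND2 alone lies left of the filter, and in 32 of the other 38 rows both miR-146a symbols lie to the right of the vector.

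Among the G1 cyclins and their kinases, 4 of the 7 members above the filter were higher in both miR-146a arrays (57.1%, against 40.2% of all genes) and none was lower in both (against 28.8%). CCND1, cyclin D1, which activates CDK4 and CDK6 on growth signals, had log2 signals of 9.81 and 9.84 in the miR-146a arrays, against 9.48 in the vector array. Both miR-146a values lay above the vector, 1.27-fold on average, and its other probe set differed by 0.40 on the log2 scale. With the prior from unequal replicates the adjusted p in limma was 0.0355. CCND2, cyclin D2, was the member below the filter, at 4.66 and 4.87 in the miR-146a arrays, against 4.63 in the vector array, and its 3 further probe sets were also below it. CCND3, cyclin D3, read 9.81 and 9.68 in the miR-146a arrays, against 9.68 in the vector array, so that replicate 2 and the vector were equal.

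The E-type cyclins, which activate CDK2 late in G1, were both higher. CCNE1 read 8.71 and 8.87 in the miR-146a arrays, against 8.39 in the vector array, which is 1.32-fold (limma adjusted p = 0.0265 with the prior from unequal replicates). CCNE2 read 8.44 and 8.71 in the miR-146a arrays, against 8.20 in the vector array. Its 1.30-fold difference came with the widest gap between the miR-146a arrays of any member, 0.27, and missed the threshold (limma adjusted p = 0.0646 with that prior).

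The kinases lay closer to the vector than these cyclins. CDK4 read 11.27 and 11.31 in the miR-146a arrays, against 11.10 in the vector array, or 1.14-fold. CDK6 read 10.67 in all 3 arrays, and its 5 further probe sets above the filter ranged from -0.20 to 0.09 in the difference. CDK2 read 9.39 and 9.27 in the miR-146a arrays, on both sides of the 9.32 of the vector array, with another probe set at -0.25. No direction can be given for CDK6 or CDK2 from these values.

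The group of RB1, the E2F factors and MYC had the highest median difference of the roles, 0.39 on the log2 scale. MYC, a transcription factor that promotes growth and entry into the cycle, was the highest member, at 10.38 and 10.35 in the miR-146a arrays, against 9.91 in the vector array. The 1.37-fold difference had a limma adjusted p of 0.119, and 0.00986 with the prior from unequal replicates. It has a single probe set of its own on the array.

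The activating E2F factors were all higher in both arrays by more than the gap between the replicates. E2F1 read 8.89 and 8.78 in the miR-146a arrays, against 8.38 in the vector array, 1.37-fold, and its other probe set differed by 0.30. E2F2 read 8.05 and 7.98 in the miR-146a arrays, against 7.62 in the vector array, 1.32-fold, and another of its probe sets above the filter was also at 0.30. E2F3 read 9.81 and 9.84 in the miR-146a arrays, against 9.45 in the vector array, 1.29-fold, with its other probe set at 0.22. In limma with the prior from unequal replicates their adjusted p were 0.0133, 0.0185 and 0.0242, and with the default prior 0.215, 0.17 and 0.119.

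E2F8, an atypical E2F that represses E2F targets, read 7.58 and 7.71 in the miR-146a arrays, against 7.55 in the vector array, so that replicate 1 lay near the vector. RB1, the pocket protein that holds E2F factors in check, read 9.79 and 9.97 in the miR-146a arrays, against 9.97 in the vector array. Replicate 2 equalled the vector there. Its other probe set, whose average signal was just under the filter, was lower by -0.31.

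**Figure D2:**
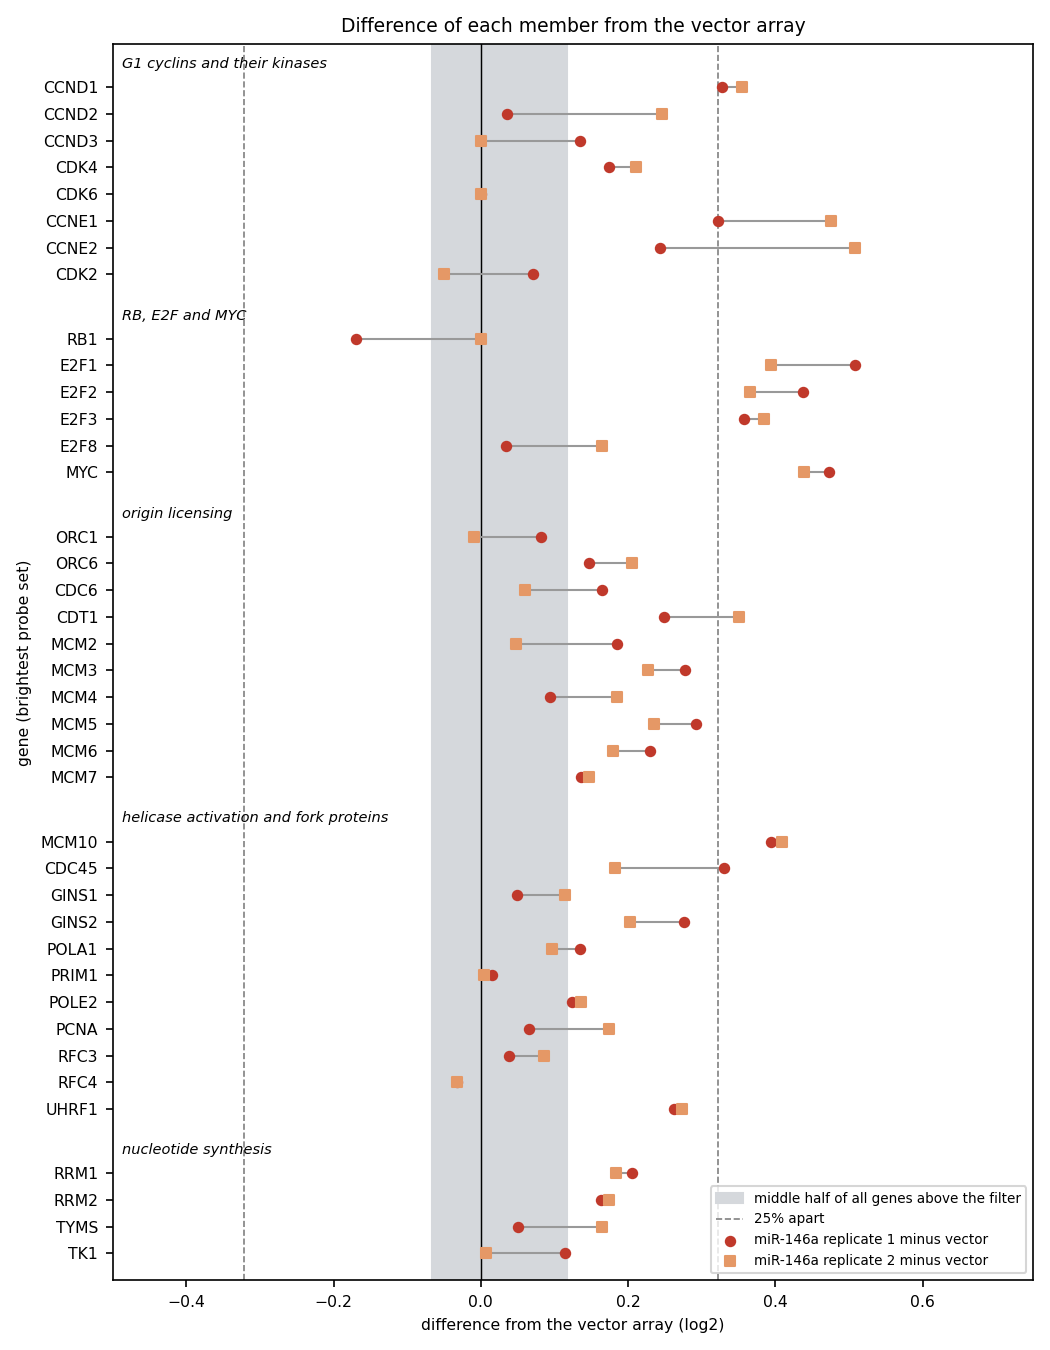
Difference from the vector array (x axis, log2) of miR-146a replicate 1 (circles) and replicate 2 (squares) for each of the 39 members (rows, by role, brightest probe set). The band is the interquartile range of all 12444 genes above the filter (-0.07 to 0.12), the dashed lines mark a 25% difference, and the symbols of MYC, E2F1, E2F2, E2F3, MCM10 and CCND1 both lie beyond the right one.

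Since many members are textbook E2F targets, their promoters were searched for the letters TTTGGCGC, TTTCCCGC, TTTGCCGC and TTTCGCGC on both strands, in RefSeq windows of 250 bases before to 50 after each gene's start (GRCh38.p14). In these letters, matches of different motifs can overlap. For 31 members there were 44 windows, of which 18 (40.9%) held a match, where 3.31% of all 35116 windows did. By gene, 17 of the 31 members held one, where 6.51% of the 10059 genes above the filter with a window did. CACGTG, the E-box that MYC can bind, was in 5 of the 44 windows (11.4%), where 7.26% of all windows held it. The 17 members with an E2F motif had a median difference of 0.14 on the log2 scale (0.06 to 0.45), and the 14 without one a median of 0.12 (-0.09 to 0.40). The ranges overlap, so a match in the window did not separate the members by their difference.

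The windows of E2F1, E2F2 and E2F3, which read at least 25% higher in both arrays, and of the helicase subunits MCM3 and MCM6 are shown as examples, each on the strand of its gene with the matches in capitals. The MCM6 window holds 2 copies of a run in which TTTGGCGC and the reverse complement of TTTCGCGC overlap. E2F3 has another window, which held none of the E2F motifs but did hold CACGTG. Of the other members at least 25% higher in both arrays, MCM10 had a window without a match, and CCND1 and MYC had no window here.
E2F1, chr20:33686336-33686635, minus strand: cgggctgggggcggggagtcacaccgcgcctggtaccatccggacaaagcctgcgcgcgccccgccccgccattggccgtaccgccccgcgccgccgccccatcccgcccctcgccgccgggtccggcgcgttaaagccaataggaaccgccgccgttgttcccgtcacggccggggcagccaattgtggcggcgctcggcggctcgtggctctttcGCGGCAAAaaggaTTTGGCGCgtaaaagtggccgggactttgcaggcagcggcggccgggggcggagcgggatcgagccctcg
E2F2, chr1:23531184-23531483, minus strand: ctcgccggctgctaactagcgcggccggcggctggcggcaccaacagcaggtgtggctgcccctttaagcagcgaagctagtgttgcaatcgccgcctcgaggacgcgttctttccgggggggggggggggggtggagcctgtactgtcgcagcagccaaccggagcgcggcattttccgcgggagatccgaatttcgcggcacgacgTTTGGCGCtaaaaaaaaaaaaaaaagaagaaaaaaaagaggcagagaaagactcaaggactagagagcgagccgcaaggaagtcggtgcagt
E2F3, chr6:20401629-20401928, plus strand: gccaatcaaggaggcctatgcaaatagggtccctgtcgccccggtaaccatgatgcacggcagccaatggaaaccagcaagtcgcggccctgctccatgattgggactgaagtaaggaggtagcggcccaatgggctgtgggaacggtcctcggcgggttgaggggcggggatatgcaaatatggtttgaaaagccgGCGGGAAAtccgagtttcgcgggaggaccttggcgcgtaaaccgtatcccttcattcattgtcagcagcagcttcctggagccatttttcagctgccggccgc
MCM3, chr6:52284693-52284992, minus strand: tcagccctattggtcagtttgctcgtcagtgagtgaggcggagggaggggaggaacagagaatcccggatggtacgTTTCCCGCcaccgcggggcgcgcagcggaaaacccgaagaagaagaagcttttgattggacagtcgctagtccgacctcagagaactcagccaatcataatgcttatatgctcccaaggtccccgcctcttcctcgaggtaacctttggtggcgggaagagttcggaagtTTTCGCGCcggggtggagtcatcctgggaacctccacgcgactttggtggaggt
MCM6, chr2:135876394-135876693, minus strand: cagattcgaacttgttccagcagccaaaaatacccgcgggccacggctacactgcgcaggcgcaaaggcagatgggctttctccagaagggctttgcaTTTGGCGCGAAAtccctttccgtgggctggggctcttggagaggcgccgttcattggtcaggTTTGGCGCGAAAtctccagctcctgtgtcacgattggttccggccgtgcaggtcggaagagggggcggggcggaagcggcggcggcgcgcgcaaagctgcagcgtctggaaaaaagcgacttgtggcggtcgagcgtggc

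By their brightest probe sets, 9 of 10 origin licensing genes were higher in both arrays (90%, against 40.2% of all genes). None was lower in both (against 28.8%), and their median difference was 0.16. None was 25% higher in both arrays, where 3.79% of all genes were. ORC1, the large subunit of the origin recognition complex, read 7.86 and 7.77 in the miR-146a arrays, around the 7.78 of the vector array, and was the exception. ORC6, another subunit of that complex, read 10.40 and 10.46 in the miR-146a arrays, against 10.25 in the vector array. The 2 replicates of ORC6 both lay above the vector by more than the gap between them.

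Of the loading factors, CDT1 stood highest. CDT1 read 9.47 and 9.57 in the miR-146a arrays, against 9.22 in the vector array, 1.23-fold, but its other probe set differed by 0.01. The adjusted p in limma was 0.266, and 0.0696 with the prior from unequal replicates. CDC6 read 8.99 and 8.88 in the miR-146a arrays, against 8.82 in the vector array, and its other probe set differed by 0.22. Both factors were thus higher in both arrays through the brightest probe set. The probe sets of CDC6 disagreed on the size only. The other one of CDT1 lay on both sides of the vector, at 0.03 in replicate 1 and -0.01 in replicate 2.

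The brightest probe sets of all 6 subunits of the MCM helicase, the ring that unwinds DNA at the fork, were higher in both arrays. Another probe set of MCM4 was lower in both, and another of MCM6 lay on both sides of the vector. MCM5 read 9.69 and 9.63 in the miR-146a arrays, against 9.40 in the vector array, 1.20-fold. Its other probe set differed by 0.23 in replicate 1 and 0.05 in replicate 2. MCM3 read 11.11 and 11.06 in the miR-146a arrays, against 10.83 in the vector array, 1.19-fold. MCM6 read 11.28 and 11.23 in the miR-146a arrays, against 11.05 in the vector array, 1.15-fold. Its other probe set, just above the filter, differed by -0.03 in replicate 1 and 0.01 in replicate 2. In the brightest probe sets of MCM5, MCM3 and MCM6 the miR-146a values lay closer to each other than to the vector.

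MCM7 read 11.18 and 11.19 in the miR-146a arrays, against 11.04 in the vector array, and its other probe set differed by 0.22. MCM4 read 10.27 and 10.36 in the miR-146a arrays, against 10.18 in the vector array. MCM2 read 11.14 and 11.00 in the miR-146a arrays, against 10.95 in the vector array, so that replicate 2 was near the vector. The differences of the 6 subunits by brightest probe set thus ran from 0.12 (MCM2) to 0.26 (MCM5). None passed limma with either prior (adjusted p between 0.13 and 0.633 with the default one).

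Among the proteins that activate the helicase and follow the fork, 10 of 11 members were higher in both arrays by their brightest probe set (90.9%, against 40.2% of all genes), RFC3 among them, whose dimmer probe set was lower in both. MCM10, which helps to start DNA unwinding at licensed origins, read 8.55 and 8.57 in the miR-146a arrays, against 8.16 in the vector array. The difference was 1.32-fold, and its further probe sets differed by 0.26 and 0.44 on the log2 scale. It had the smallest adjusted p of the members in limma, 0.118, and 0.0171 with the prior from unequal replicates. All 3 probe sets of MCM10 thus lay on the same side of the vector.

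CDC45, a part of the active helicase, read 9.41 and 9.27 in the miR-146a arrays, against 9.08 in the vector array, 1.19-fold. GINS2, a subunit of the GINS complex, read 9.45 and 9.38 in the miR-146a arrays, against 9.17 in the vector array, 1.18-fold. GINS1, its partner in that complex, read 10.58 and 10.65 in the miR-146a arrays, against 10.53 in the vector array. The difference of GINS1, 0.08, lay within the interquartile range of all genes, and those of CDC45 and GINS2 lay above it by their brightest probe sets. Another GINS2 probe set above the filter differed by 0.07, within that range, so the size for GINS2 depends on the probe set.

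The polymerase genes lay closer to the vector than the brightest probe sets of CDC45 and GINS2 did. POLA1, the catalytic subunit of the polymerase that starts DNA strands, was 0.14 and 0.10 higher in miR-146a replicates 1 and 2 than the 7.90 of the vector array. PRIM1, the primase subunit that works with it, read 8.90 and 8.88 in the miR-146a arrays, against 8.88 in the vector array. POLE2, a subunit of the leading-strand polymerase, read 8.09 and 8.10 in the miR-146a arrays, against 7.97 in the vector array. Their differences were 0.12, 0.01 and 0.13 on the log2 scale.

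PCNA, the sliding clamp, read 11.82 and 11.93 in the miR-146a arrays, against 11.76 in the vector array. RFC3 and RFC4 belong to the loader that puts this clamp on DNA. RFC3 read 10.57 and 10.62 in the miR-146a arrays, against 10.53 in the vector array, and RFC4 read 9.97 in both miR-146a arrays, against 10.00 in the vector array. The brightest probe sets of PCNA, RFC3 and RFC4 thus stayed within 0.12 of the vector on average, while another probe set of RFC3 differed by -0.28.

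UHRF1, which recruits the maintenance DNA methyltransferase to newly copied DNA, read 10.99 and 11.01 in the miR-146a arrays, against 10.73 in the vector array. The 1.20-fold difference had a limma adjusted p of 0.118, and 0.0881 with the prior from unequal replicates. Its miR-146a arrays lay 0.01 apart, and both were above the vector.

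The 4 enzymes of deoxynucleotide synthesis were higher in both arrays by their brightest probe sets (100%, against 40.2% of all genes), with a median difference of 0.14. Each had another probe set above the filter that was not. RRM1 and RRM2 are the large and small subunits of ribonucleotide reductase, which makes deoxynucleotides from ribonucleotides. RRM1 read 11.55 and 11.53 in the miR-146a arrays, against 11.35 in the vector array, and RRM2 read 11.98 and 11.99, against 11.81. The brightest probe sets of the subunits were higher by similar amounts, 1.14-fold and 1.12-fold. The other probe set of RRM2, nearly as bright, read 11.81 and 11.73 in the miR-146a arrays, on both sides of the 11.77 of the vector array, and the other one of RRM1 was lower in both.

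TYMS, thymidylate synthase, read 11.48 and 11.60 in the miR-146a arrays, against 11.43 in the vector array. TK1, thymidine kinase of the salvage pathway, read 10.24 and 10.13 in the miR-146a arrays, against 10.12 in the vector array. In each of these genes 1 miR-146a array lay close to the vector, replicate 1 for TYMS and replicate 2 for TK1. The further probe sets of TYMS differed by -0.02 and 0.04 on the log2 scale, and that of TK1 by -0.01.

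Probe sets of the same gene did not always read alike. Among the 79 probe sets of the members, 67 were above the filter, and 20 members had more than 1 such probe set. The 29 further probe sets above the filter were higher in both arrays in 14 cases and lower in both in 8. Of the 22580 probe sets above the filter with 1 gene, 36.7% were higher in both and 32.6% lower in both. The share of further probe sets lower in both was thus near that of all probe sets. Their median difference was 0.03, against 0.16 for the brightest ones. Over all 67, which include the brightest ones, 46 were higher in both and 9 lower in both.

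The widest disagreements were in RRM1, MCM4 and RFC3. The dimmer probe set of RRM1 read 7.73 and 7.84 in the miR-146a arrays, against 8.14 in the vector array, a difference of -0.36 where the brightest one gave 0.19. A probe set of MCM4 read 5.97 and 6.09 in the miR-146a arrays, against 6.36 in the vector array, a difference of -0.33 where the others ranged from 0.00 to 0.16. The dimmer probe set of RFC3 read 7.94 and 7.99 in the miR-146a arrays, against 8.25 in the vector array, a difference of -0.28 where the brightest gave 0.06. With all of a gene's probe sets averaged, the differences of RRM1, MCM4 and RFC3 were -0.08, -0.00093 and -0.06, so that no direction is settled for these genes. CCND1, E2F1, E2F2, E2F3 and MCM10 were higher in both arrays by each of their probe sets above the filter.

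**Figure D3:**
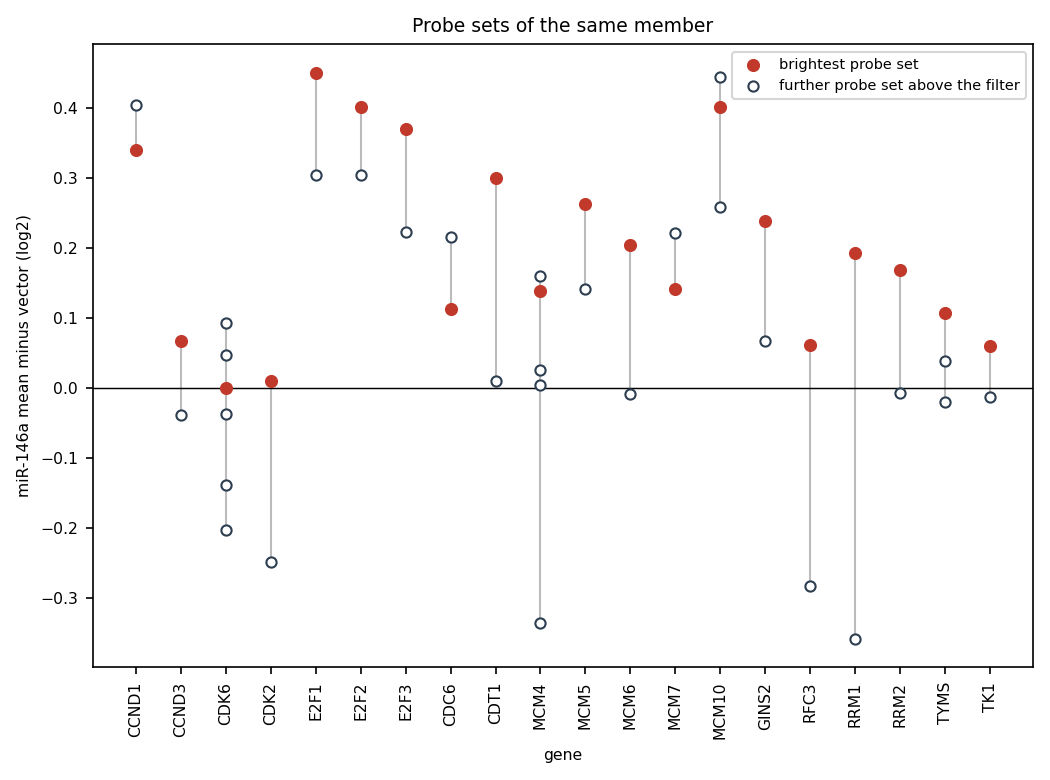
Difference of the miR-146a mean from the vector (y axis, log2) for each probe set above the filter in the 20 members with more than 1 of them (x axis), with the brightest probe set filled and the further ones open. RRM1, MCM4 and RFC3 have an open symbol below -0.25, while every symbol of CCND1, E2F1, E2F2, E2F3 and MCM10 lies above 0.

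Other genes of the same machinery were read from 4 further lists, written with earlier results of these arrays known. Of 40 other replication factors, all above the filter, 30 were higher in both arrays (75%, against 40.2% of all genes) and 4 lower in both (10%, against 28.8%), with a median difference of 0.13. None passed limma. The prior from unequal replicates called FEN1, GINS3 and MCM9 higher (7.5%, against 4.76% of all genes) and POLD4 lower (2.5%, against 2.36%, so near the background).

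FEN1, the nuclease that trims Okazaki fragments, read 11.51 and 11.57 in the miR-146a arrays, against 11.04 in the vector array, 1.42-fold (limma adjusted p = 0.00608 with that prior). GINS3, another subunit of GINS, read 7.46 and 7.31 in the miR-146a arrays, against 6.87 in the vector array. MCM9, a helicase paralog, read 6.40 in both miR-146a arrays, against 6.02 in the vector array. The log2 differences of FEN1 and GINS3, 0.50 and 0.51, were above that of MYC, and that of MCM9 was 0.37.

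POLD4, the smallest subunit of the lagging-strand polymerase, went the other way, at 8.18 and 8.12 in the miR-146a arrays, against 8.73 in the vector array (limma adjusted p = 0.00289 with that prior). It read 1.49-fold lower. PRIM2, the regulatory subunit of primase, read 6.18 and 6.41 in the miR-146a arrays, against 6.48 in the vector array. MCM8 read 7.88 in both miR-146a arrays, against 7.92 in the vector array.

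Of 16 genes of nucleotide supply 14 were above the filter, with 9 higher in both arrays (64.3%, against 40.2% of all genes), 2 lower in both (14.3%, against 28.8%) and a median of 0.06. SAMHD1, a deoxynucleotide triphosphatase that lowers the nucleotide pool and is also known as interferon-inducible, read 9.87 and 9.82 in the miR-146a arrays, against 9.20 in the vector array. It was the gene of this list that passed limma with the prior from unequal replicates (adjusted p = 0.00173), at 1.56-fold, or 7.14% of the list, against 4.76% of all genes. CTPS1 and NME1 differed by 0.23 and 0.19, and the kinases DCK and TK2 by -0.17 and -0.14.

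Of 26 other G1/S regulators above the filter, 11 were higher in both arrays (42.3%, near the 40.2% of all genes) and 10 lower in both (38.5%, against 28.8%), with a median of 0.01. CDC25A, the phosphatase that activates CDK2, read 8.87 and 8.94 in the miR-146a arrays, against 8.53 in the vector array, and passed as higher with the prior from unequal replicates (limma adjusted p = 0.0239). It was the 1 call of this list, 3.85% of it, against 4.76% of all genes. MAX, the partner of MYC, and SKP2, which marks the inhibitor p27 for destruction, differed by 0.20 and 0.24. CDKN1B, which encodes that inhibitor, differed by -0.18, CKS2 by -0.22 and CCNH by -0.17, and none of these passed limma with either prior.

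Of 22 genes of mitosis, 5 were higher in both arrays (22.7%, against 40.2% of all genes) and 10 lower in both (45.5%, against 28.8%), with a median of -0.03 that lay within the interquartile range of all genes. BUB1, a spindle checkpoint kinase, read 9.15 and 9.14 in the miR-146a arrays, against 9.47 in the vector array, a difference of -0.33 (limma adjusted p = 0.0415 with the prior from unequal replicates). That was the 1 call of this list, 4.55% of it, against 2.36% of all genes. CCNB2 and TPX2 differed by -0.16 and -0.17. FOXM1, a transcription factor of late cell cycle genes, differed by 0.17, BIRC5 by 0.10 and AURKB by 0.09. The medians of the G1/S and replication members (0.16) and of the mitosis genes (-0.03) are given side by side, and the difference between the lists was not tested.

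**Figure D4:**
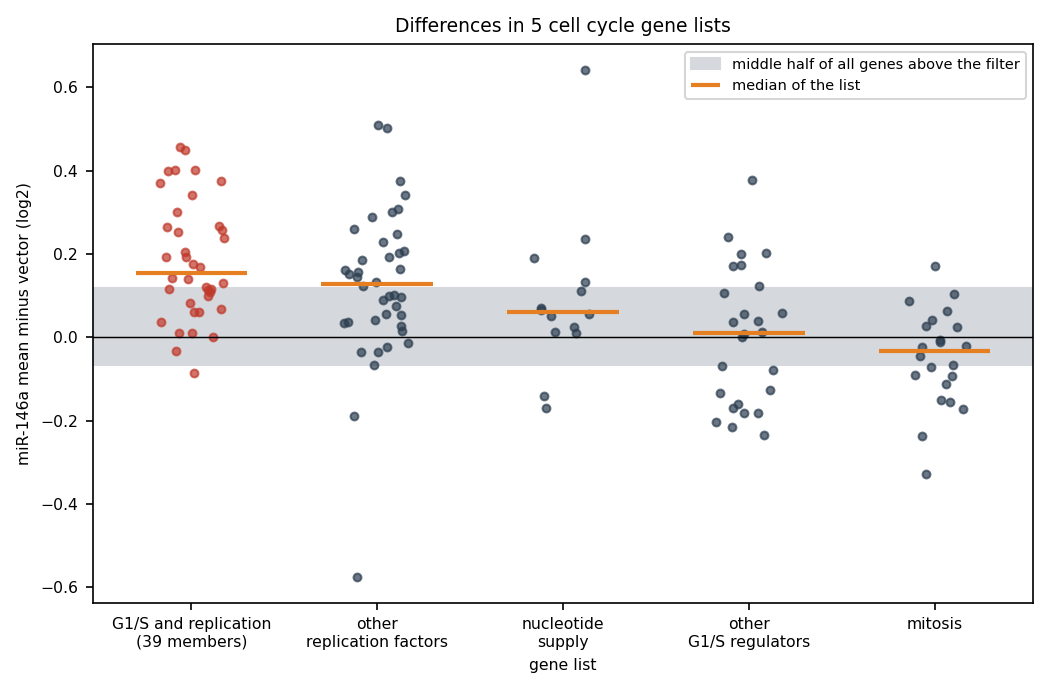
Difference of the miR-146a mean from the vector (y axis, log2) for each gene above the filter in 5 gene lists (x axis), with the list median as a bar and the interquartile range of all 12444 genes (-0.07 to 0.12) as a band. The medians are 0.16 for the members, 0.13 for other replication factors, 0.06 for nucleotide supply, 0.01 for other G1/S regulators and -0.03 for mitosis.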

How the data were processed

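Total RNA was labelled with biotin and hybridised to Affymetrix arrays, per the labels' protocols. The authors deposited log2 values made with RMA, per the submitters' processing notes; its version, and whether other arrays were processed alongside, are unknown from the labels. Without detection calls, only the log2 value itself shows how far a probe set was above background. Exactly equal values (tolerance 0) occurred in 19.3% of probe sets between the miR-146a arrays, in 16.9% and 18.6% between replicates 1 and 2 and the vector, and in 8.29% across all 3 arrays.

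The platform annotation paired 41091 of the 54613 non-control probe sets with 1 gene and 1801 with several, and 11721 stayed unnamed here; 41037 matched RefSeq by Entrez number. The brightest probe set represented a gene, and 12444 genes lay above 5.13, percentile 50 of non-control probe sets. Limma 3.58.1 (R 4.3.3, lmFit and eBayes, two-sided, Benjamini-Hochberg) compared the groups given by the labelled transduction; its prior had 0.55 degrees of freedom, or 10.3 from genes with unequal replicates. The single vector array adds nothing to the spread. Since the labels do not name separate cultures, p-values cover only the spread of the miR-146a arrays, possibly a technical one. Figures were drawn with matplotlib 3.10.9.

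The members and lists were chosen with earlier results of these data known. All 39 members are described; from each other list at most 3 genes per direction are named, by the smaller of the absolute array differences among genes on one side of the vector in both arrays. CDKN2C was not analysed here for want of a probe set annotated to it alone, a further gene is not reported here, and SHMT1 was below the filter.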

Additional observations from a re-analysis of the deposited data

How the results depend on the processing

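No paired analysis was possible because the vector group holds a single array and shares fewer than 2 replicate numbers with the miR-146a group. Leaving out an array leaves 1 against 1, which gives values with no test. The count of members higher in both arrays (32 of 38) lay between 29 and 33 with probe sets averaged, no filter, a filter at percentile 70, cyclic loess or quantile normalization. In these settings the share over all genes ran from 33.1% (no filter) to 45.1% (quantile normalization). Without replicates 1 and 2 the rule needs only 1 array. It then held for 32 and 35 members, where 48.9% and 52.3% of all genes met it. With every probe set as its own feature the count was 46 of 67, against 36.7% of all such probe sets. The count lower in both (1) was 5 with probe sets averaged (against 34.9% of all genes) and 4 with cyclic loess (against 37.5%). It was 9 of 67 with every probe set on its own (against 32.6%). Without replicates 1 and 2 it was 3 and 2, against 39.7% and 37.6% of all genes. The 6 members at least 25% higher in both arrays (against 3.79% of all genes) became 0 at 1.5-fold (against 0.546%). With probe sets averaged, the other filter settings or the added normalizations, the count at 25% lay between 4 and 6. With every probe set as its own feature it was 8 of 67. Without replicates 1 and 2, where the rule needs only 1 array, it was 9 and 7. The share of all genes at 25% is given for the main setting only, so these counts cannot be set against a background. The median difference of 0.16 ranged from 0.12 to 0.18. Limma called 0 members under every setting but the prior from unequal replicates, which called 7; over all genes that prior called 886 and a robust prior 635, none of the latter a member, against 0. The sign changed for CDK2 (-0.026 with probe sets averaged, -0.0012 with cyclic loess, and -0.050 to 0.071 when a replicate was left out), for ORC1 (-0.0097 to 0.081 when a replicate was left out), for PRIM1 (-0.0037 with cyclic loess), and, with probe sets averaged, for MCM4 (-0.00093), RFC3 (-0.058) and RRM1 (-0.082). For the rest the cause was not tested; with probe sets averaged, the sign changes come from the dimmer probe sets given above. The number of arrays limits all of these values.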
